A study of Mus musculus with 12 samples.

Results

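The 39 genes described here are interferon-induced GTPases and antiviral genes, grouped by role into 11 guanylate-binding proteins (GBPs), 7 immunity-related GTPases (IRGs), 4 IFIT proteins, 5 OAS proteins, 2 Mx GTPases, 6 genes of the ISG15 system and other antiviral effectors, and 4 transcription factors of the interferon response. They were found in the count table by gene symbol alone, as 39 of its 49315 genes. RNA of dorsal root ganglia (DRG) was sequenced from 12 mice at 10 months of age, with 1 library per mouse and about 8 ganglia in each. Of the mice, 6 were Postn-Cre(+);Nf2 flox/flox (Nf2 mice), and the other 6 carried the same Cre and Nf2 flox/flox together with Fak1 flox/flox (DKO mice, for double knockout). Both genotypes therefore carried the Cre transgene and floxed Nf2, the gene of the tumor suppressor merlin, and differed by the floxed alleles of Fak1, which encodes focal adhesion kinase and is annotated as Ptk2. Each genotype had 3 mice labelled male and 3 labelled female. The Periostin promoter drives this Cre in Schwann cells and their precursors, so the whole ganglia sequenced here also held neurons, immune cells and vessels in which the floxed genes are not targeted. Mice with intact Nf2 were not analysed here, and the question was whether the loss of Fak on top of Nf2 moved the interferon-induced genes.

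Interferons are secreted cytokines that bind receptors on most cells of the body and switch on a shared program of antiviral genes. Type I interferons act through IFNAR1 and IFNAR2 and a complex with STAT2 and IRF9 that binds the interferon-stimulated response element, whereas interferon gamma acts through IFNGR1 and IFNGR2 on genes with a gamma-activated site and induces the factor IRF1. GBPs and IRGs are GTPases that assemble on the vacuoles of intracellular pathogens and respond strongly to interferon gamma. IFIT, OAS and Mx proteins act on viral RNA and nucleocapsids and respond strongly to type I interferon. In peripheral ganglia, neurons, satellite glia, Schwann cells and macrophages can all express such genes, and in bulk tissue fewer cells of a type and less RNA per cell cannot be told apart.

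The libraries held 21129191 to 41250329 counted reads, and markers of the labelled tissue were abundant in all of them, with summed levels of 5367 to 7418 CPM (counts scaled to a common library total) for 8 sensory neuron markers and of 6098 to 9141 CPM for 8 Schwann cell and satellite glia markers. The targeted gene did not separate the genotypes in whole ganglia, as Ptk2 ranged from 65.8 to 75.5 CPM in Nf2 mice and from 46.5 to 76.0 CPM in DKO mice (log2 fold change -0.15 ± 0.098 SE, edgeR adjusted p = 0.529). Nf2 mouse 702 went against its sex label, since the library labelled male had 496 CPM of Xist and 0.525 CPM of Ddx3y, as in the 6 libraries labelled female (428 to 637 CPM and 0.1495 to 0.852 CPM). DKO mouse 887 had the fewest counted reads and the largest share of mitochondrial reads, 5.60% against 1.99% to 4.45% in the other 11 libraries. The main counts below are also given without mouse 702, without mouse 887 or without both. These are also the mice with the highest values of most genes described here, mouse 702 in 21 genes and mouse 887 in 16. The choice of these mice is therefore not independent of those values, and leaving out both was added after the data had been seen.

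Promoters of the members are shown first because the response element and the gamma-activated site are the sequences through which these genes are known to be induced. RefSeq promoter windows on GRCm38.p6, each 300 bases long with 250 bases before and 50 after a transcription start, were found for 27 of the 39 members (31 windows). Both strands were searched for GAAA, 2 bases of any kind and GAAA, the core of the response element, and for TTC, 3 bases of any kind and GAA, the core of the gamma-activated site. The response element core was found in 19 of 31 member windows (61.3%) against 3.44% of all 32851 windows, and the gamma-activated site core in 10 of 31 (32.3%) against 8.30%. Among GBPs and IRGs, 10 of 12 windows held the response element core and 6 held the gamma-activated site core, 4 of the 6 from IRGs. Isg15 had 3 matches to the response element core, the most of any member. They started at -78, -72 and -66 from the transcription start, each overlapping the next. Ifit3 and Bst2 are printed as members with 2 matches that are described in detail below. Gbp7 and Irgm2 are printed as a GBP and an IRG with both cores. The cores are in capitals and the rest is in lower case, each sequence running 5′ to 3′ along the gene. The Ifit3 window is chr19:34583279-34583578 on the plus strand, that of Bst2 chr8:71537423-71537722 on the minus strand, that of Gbp7 chr3:142530086-142530385 on the plus strand and that of Irgm2 chr11:58214727-58215026 on the plus strand. In Ifit3 both marked cores are response elements. In Bst2 a gamma-activated site core overlaps the first of 2 response element cores, which run together into 1 stretch of capitals. In Gbp7 the first 2 stretches are gamma-activated site cores and the last is the response element core, and in Irgm2 the gamma-activated site core comes first. These matches describe letters and not measured binding.
Ifit3: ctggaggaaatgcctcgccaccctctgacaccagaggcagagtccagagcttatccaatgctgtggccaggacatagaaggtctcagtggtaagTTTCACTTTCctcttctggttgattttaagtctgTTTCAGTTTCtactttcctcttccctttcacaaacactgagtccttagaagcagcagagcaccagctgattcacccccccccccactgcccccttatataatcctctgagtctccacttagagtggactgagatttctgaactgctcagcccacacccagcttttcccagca
Bst2: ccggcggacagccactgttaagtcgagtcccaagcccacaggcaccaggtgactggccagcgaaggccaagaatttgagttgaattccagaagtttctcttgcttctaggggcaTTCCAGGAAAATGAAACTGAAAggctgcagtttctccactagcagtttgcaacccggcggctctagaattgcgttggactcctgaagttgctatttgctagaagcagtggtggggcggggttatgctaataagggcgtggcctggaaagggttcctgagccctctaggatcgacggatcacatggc
Gbp7: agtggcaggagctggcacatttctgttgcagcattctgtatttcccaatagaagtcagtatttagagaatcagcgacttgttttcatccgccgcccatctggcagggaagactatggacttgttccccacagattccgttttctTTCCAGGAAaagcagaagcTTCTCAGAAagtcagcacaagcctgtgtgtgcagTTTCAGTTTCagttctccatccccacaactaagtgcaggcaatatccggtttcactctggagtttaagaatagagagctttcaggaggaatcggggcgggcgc
Irgm2: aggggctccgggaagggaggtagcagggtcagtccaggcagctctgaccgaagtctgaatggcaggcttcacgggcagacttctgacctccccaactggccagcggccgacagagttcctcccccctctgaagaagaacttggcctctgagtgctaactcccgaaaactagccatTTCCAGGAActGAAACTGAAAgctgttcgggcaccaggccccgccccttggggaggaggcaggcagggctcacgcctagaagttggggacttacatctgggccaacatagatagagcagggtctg

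Expression of the members spanned a wide range in these ganglia. Per kilobase of exon, Bst2, which encodes tetherin, a membrane protein that holds budding virions, had the highest level (mean of 44.3 CPM per kilobase over 12 mice), followed by Ifit3 (33.7) and Gbp2 (32.5). Levels at the other end were 0.176 CPM per kilobase for Oas3, 0.438 for Oas2 and 0.475 for Gbp8. All 39 members passed the filter on low counts and were tested among 18295 genes.

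No member passed the genotype comparison. By edgeR's quasi-likelihood test with Benjamini-Hochberg adjustment over all genes, 0 of 39 members had an adjusted p under 0.05, against 172 of 18295 genes (0.94%). At an unadjusted p under 0.05 there were 3 members, Gbp2b, Oas2 and Rsad2, a smaller share than the 14.9% of all genes. The fold change of DKO against Nf2 was below 0 in 24 of 39 members against 49% of all genes, and its median was -0.11 on the log2 scale over the members and 0.0047 over all genes. In no member did the CPM values of the 2 genotypes fail to overlap, which 1.95% of all genes did. DESeq2 called 1 member, Gbp2b (adjusted p = 0.0117), among 831 genes, and limma voom called 0 members among 521 genes, with 1 member at an unadjusted p under 0.05. For Gbp2b, limma voom gave a smaller log2 fold change of -1.75 (adjusted p = 0.408).

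The direction of the member median turned without Nf2 mouse 702 and was kept without DKO mouse 887. Without Nf2 mouse 702, 12 of 39 fold changes were below 0 and the median rose to 0.14. Without DKO mouse 887, 34 were below 0 with a median of -0.33. In all 12 fits that left out 1 mouse, the median moved by less than 0.31. That value is the standard deviation of the per-mouse member median within genotypes, on log2(CPM + 4). Without both mice, 26 were below 0, the median was -0.045 and 0 members passed the edgeR test, as in each of the 12 fits that left out 1 mouse. The plot of fold changes shows these 4 fits side by side.

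**Figure D1:**
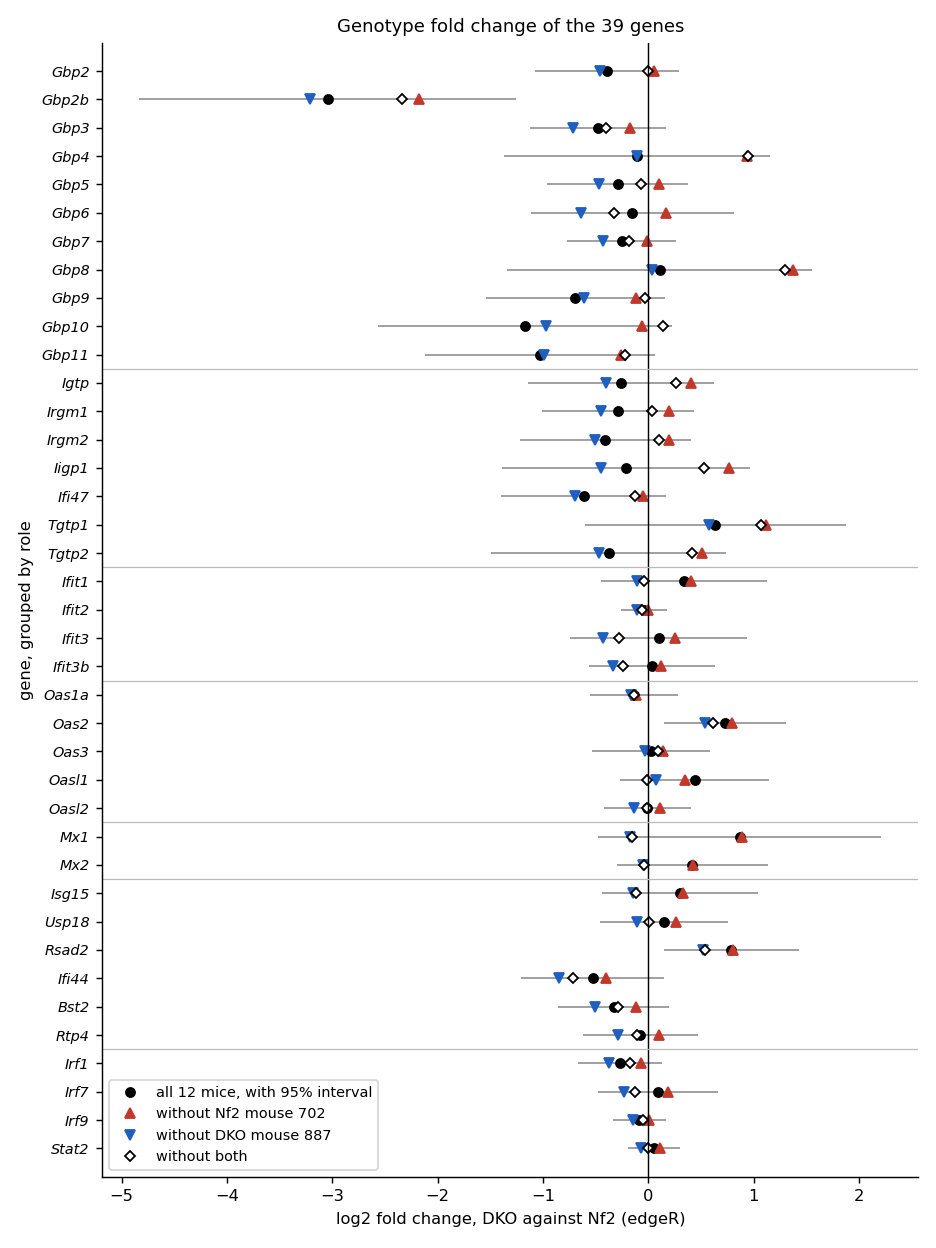
Log2 fold change of DKO against Nf2 from edgeR for each of the 39 genes, grouped by role, with the 95% interval of the fit to all 12 mice (black points and grey lines) and the fits without Nf2 mouse 702 (red), without DKO mouse 887 (blue) and without both (open diamonds). GBPs and IRGs move to the right when mouse 702 is left out, IFIT and Mx genes move to the left when mouse 887 is left out, and Gbp2b stays below -2 in all 4 fits.

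In Nf2 mouse 702, 21 of 39 members were at least 2 times the median of the other 11 mice, against 0.738% of all genes. They were all 11 GBPs, all 7 IRGs, Ifit3, Ifi44 and Bst2. In DKO mouse 887, 16 of 39 members were at least 2 times that median, against 2.59% of all genes, and these were Ifit1, Ifit3, Ifit3b, Mx1, Mx2, Oas2, Oasl1, Isg15, Usp18, Rsad2, Ifi44, Irf7, Gbp6, Gbp8, Iigp1 and Tgtp1. Each of the other 10 mice reached that level in 0 to 4 members. Mouse 702 was the highest of the 12 in 21 members and mouse 887 in 16, which left Oas1a to Nf2 mouse 884 and Tgtp1 to DKO mouse 886. Over all genes tested, mouse 702 was the highest in 4.44% and mouse 887 in 10.2%.

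**Figure D2:**
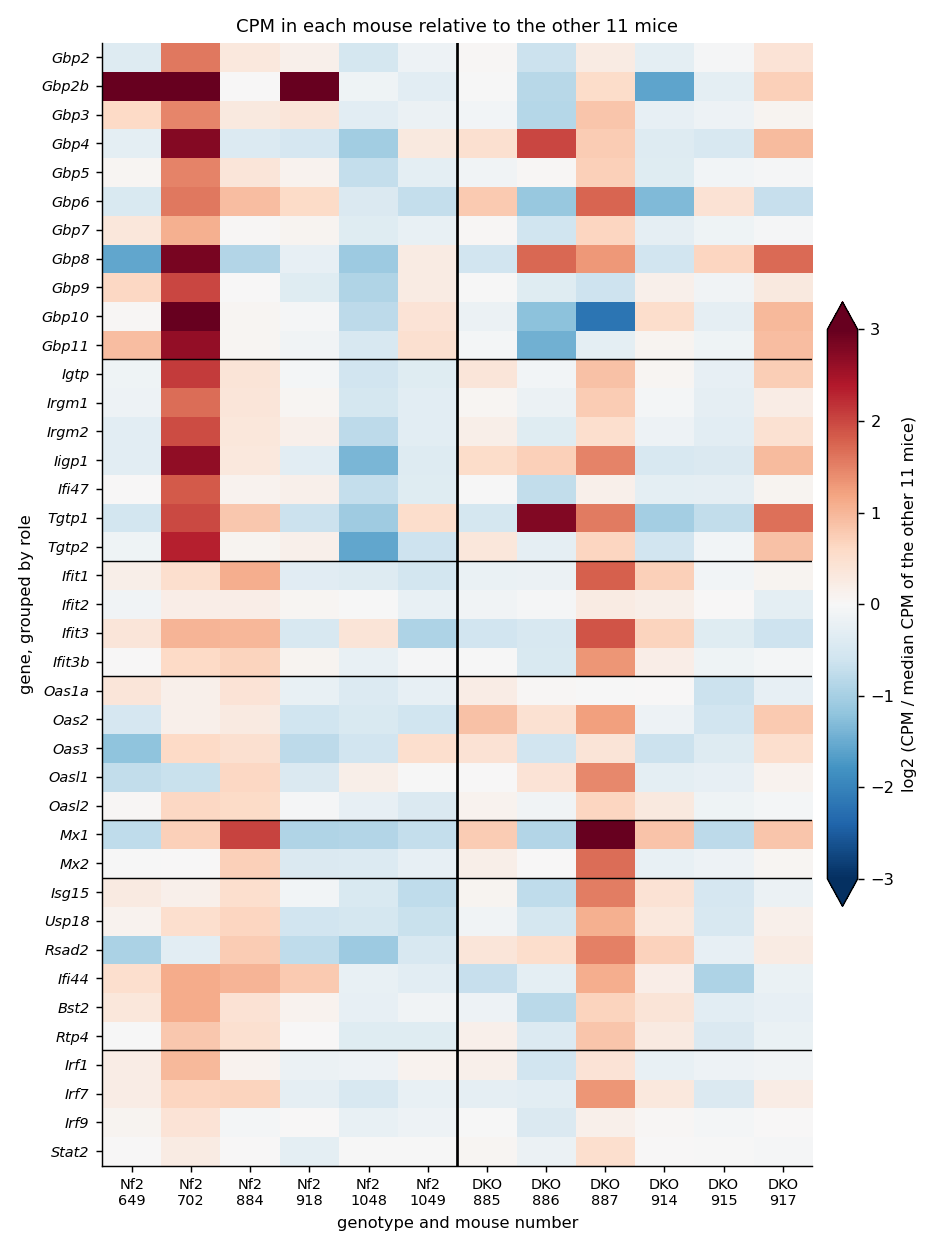
CPM of the 39 genes (rows, grouped by role) in each mouse (columns, Nf2 left and DKO right of the line), as the log2 ratio to the median of the other 11 mice, with the color scale capped at 3 in both directions. Mouse 702 is red across the GBPs and IRGs at the top, and mouse 887 is red across the IFIT, Mx and ISG15 genes lower down.

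The 2 mice differed in which roles were high. The median GBP stood at 3.98 times the other mice in mouse 702 and at 1.55 times in mouse 887, and the median IRG at 3.92 and 1.68 times, the latter close to DKO mouse 917 (1.66 times). For the IFIT proteins the order was opposite, with 1.46 times in mouse 702 and 2.98 times in mouse 887, and for the Mx GTPases it was 1.33 and 6.75 times. Nf2 mouse 884 came next to mouse 887 in both lists, at 1.80 times for IFIT proteins and 2.85 times for Mx GTPases. OAS proteins stood at 1.11 and 1.55 times, and the antiviral effectors at 1.59 and 2.11 times. Transcription factors stood at 1.45 and 1.38 times. These ratios come from 1 library each and have no replicate check.

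**Figure D3:**
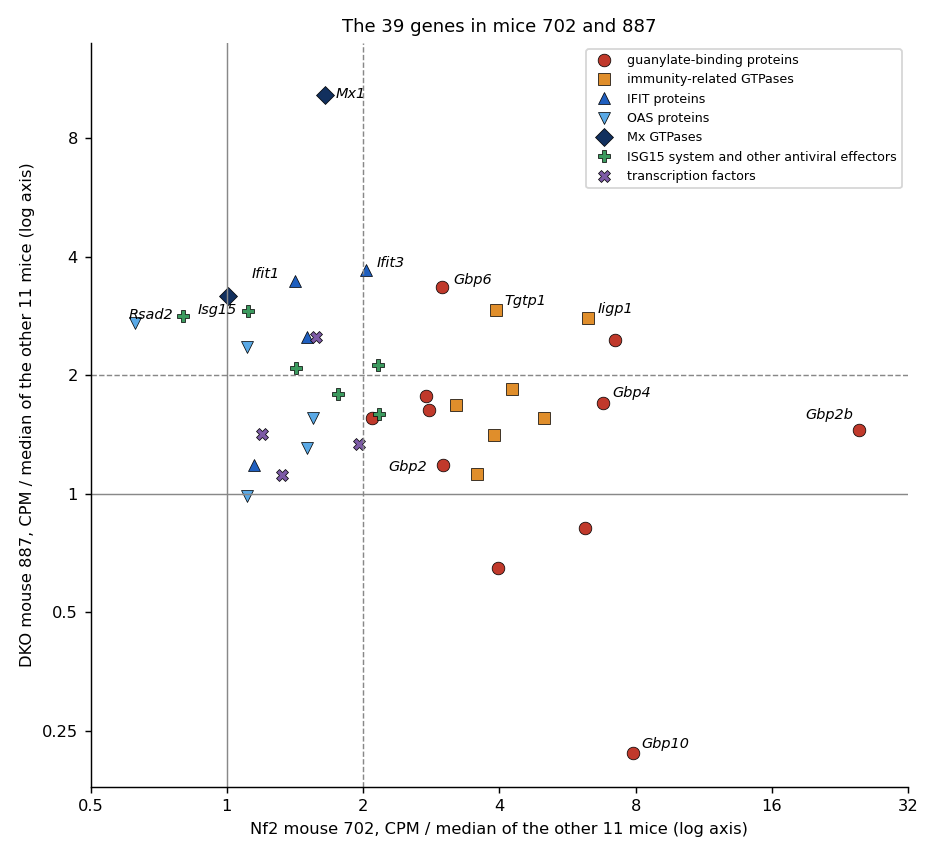
Each of the 39 genes by its CPM in Nf2 mouse 702 (x axis) and in DKO mouse 887 (y axis), both divided by the median of the other 11 mice on log axes, with solid lines at 1 and dashed lines at 2. GBPs and IRGs lie to the right of the dashed vertical line, and Mx1 at 10.3 times and Ifit1, Ifit3 and Ifit3b lie above the dashed horizontal line.

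GBPs are encoded in a cluster of 5 members on chromosome 3 (Gbp2, Gbp2b, Gbp3, Gbp5 and Gbp7) and a cluster of 6 on chromosome 5 (Gbp4, Gbp6, Gbp8, Gbp9, Gbp10 and Gbp11). Gbp2, a GBP that coats vacuoles of bacteria and parasites, had 50.2 CPM at the lowest, 72.2 at the median and 213 at the highest in Nf2 mice, and 46.9, 72.0 and 94.0 CPM in DKO mice. The medians were nearly equal, and the highest Nf2 value was that of mouse 702, with the next at 89.0 CPM. Its log2 fold change was -0.39 ± 0.32 (SE, edgeR adjusted p = 0.624), and 0.055 without mouse 702. Gbp7 ranged from 58.6 over a median of 76.2 to 154 CPM in Nf2 mice and from 49.5 over 71.0 to 114 CPM in DKO mice. Here the highest Nf2 value was again mouse 702 and the highest DKO value was mouse 887, and the log2 fold change was -0.25 ± 0.24 (adjusted p = 0.682). Gbp10 had 3.78 CPM at the lowest, 6.52 at the median and 49.8 in mouse 702 among Nf2 mice, and 1.42 CPM in mouse 887, 5.58 at the median and 12.4 at the highest among DKO mice. It was the member in which mouse 702 stood farthest above the next mouse (4.03 times), with a log2 fold change of -1.17 ± 0.65 (adjusted p = 0.432) that became -0.062 without mouse 702.

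Gbp2b, also known as Gbp1, lies next to Gbp2 (ENSMUSG00000040264, GRCm38 chromosome 3, 142594847 to 142619179, plus strand), and it had the largest genotype difference of the members. Of the Nf2 mice 3 were high, with 34.0 CPM in mouse 649, 37.8 in mouse 918 and 96.7 in mouse 702, and the other 3 had 3.18 to 3.93 CPM. DKO mice had 1.31 to 6.35 CPM with a median of 3.54, so the low Nf2 mice lay within the DKO range and the genotypes overlapped. The log2 fold change was -3.04 ± 0.83 (SE), with an edgeR unadjusted p of 0.00268 and an adjusted p of 0.105. Without mouse 702 it was -2.18. An exact two-sided permutation test of log2(CPM + 4) gave a difference of -1.42 and p = 0.0909, where 0.00216 is the smallest p that 6 against 6 mice can give. Gbp2b entered that test because of its fold change in these same mice. Its neighbors on chromosome 3 did not show this split, as Gbp2, Gbp3, Gbp5 and Gbp7 stood at 0.767 to 1.51 times the other mice in mouse 649 and at 1.05 to 1.29 times in mouse 918. Only 0.87% of the 75-base words of Gbp2b transcripts also occur in another gene, so few of its reads could be shared.

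The remaining GBPs showed the same lead of mouse 702 in every case but Gbp6. Gbp3 had 162 CPM in mouse 702 against 49.4 to 89.0 in the other Nf2 mice, Gbp5 had 72.2 against 16.1 to 33.0, and Gbp9 had 169 against 22.7 to 65.4. Their log2 fold changes were -0.48, -0.29 and -0.69, and none passed (adjusted p of 0.497, 0.720 and 0.450). Gbp11 had 51.0 CPM in mouse 702 against 6.09 to 15.7 in the other Nf2 mice, with a log2 fold change of -1.03 ± 0.51 and an adjusted p of 0.371. Gbp4 had 76.6 CPM in mouse 702 and 45.1 in DKO mouse 886, against 6.71 to 21.6 elsewhere, and Gbp8, with 0.341 to 6.08 CPM the lowest GBP per kilobase, was likewise highest in mice 702 and 886. Gbp6 was highest in mouse 887 (32.8 CPM) and next in mouse 702 (29.3 CPM). Assignment of reads is uncertain for part of the chromosome 5 cluster, since Gbp6 and Gbp10 share 67.3% and 77.8% of their 75-base words with other genes, chiefly the gene model Gm43302, and the gene models of Gbp4, Gbp8 and Gbp9 overlap on the same strand.

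IRGs, which attack or regulate pathogen vacuoles, were led by Igtp (Irgm3), Ifi47 and Irgm2 in level per kilobase. Igtp, a regulatory IRG, had 18.04 CPM at the lowest, 25.2 at the median and 110 at the highest in Nf2 mice, and 22.6, 30.1 and 47.5 CPM in DKO mice. Irgm2, also a regulatory IRG, had 19.2, 29.8 and 117 CPM in Nf2 mice and 25.7, 31.9 and 42.3 CPM in DKO mice. Both had the higher median in DKO mice while the highest value of all lay in Nf2 mouse 702. Their fitted log2 fold changes were accordingly below 0 with all mice, -0.26 ± 0.41 (edgeR adjusted p = 0.819) for Igtp and -0.41 ± 0.38 (0.670) for Irgm2, and above 0 without mouse 702, at 0.41 and 0.19. The gene models of Igtp and Irgm2 overlap on chromosome 11, and 7.80% and 4.78% of their words are shared.

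Ifi47 (Irg47), an effector IRG, had 17.5, 29.6 and 101 CPM as the lowest, median and highest values in Nf2 mice and 17.1, 26.1 and 31.6 CPM in DKO mice. Mouse 702 stood 3.19 times above the next mouse, the other 11 mice overlapped fully, and the log2 fold change moved from -0.61 ± 0.36 (adjusted p = 0.470) to -0.046 without mouse 702. Irgm1, another regulatory IRG, had 84.1 CPM in mouse 702 and 18.9 to 44.1 CPM elsewhere, and Iigp1 (Irga6), an effector that disrupts the vacuoles of Toxoplasma, had 94.7 CPM against 7.19 to 42.1. Tgtp1 differed from this pattern. It ranged from 0.843 over a median of 1.48 to 4.76 CPM in Nf2 mice and from 0.873 over 2.38 to 8.26 CPM in DKO mice, and its highest value was that of DKO mouse 886. Its near copy Tgtp2 had 68.0 CPM in mouse 702 and 11.8 CPM in mouse 886. The pair shares 77.2% of the words of Tgtp1 and 81.3% of those of Tgtp2 with other genes, mostly with each other, so the split of reads between them is uncertain. No IRG passed (adjusted p of 0.470 to 0.897).

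**Figure D4:**
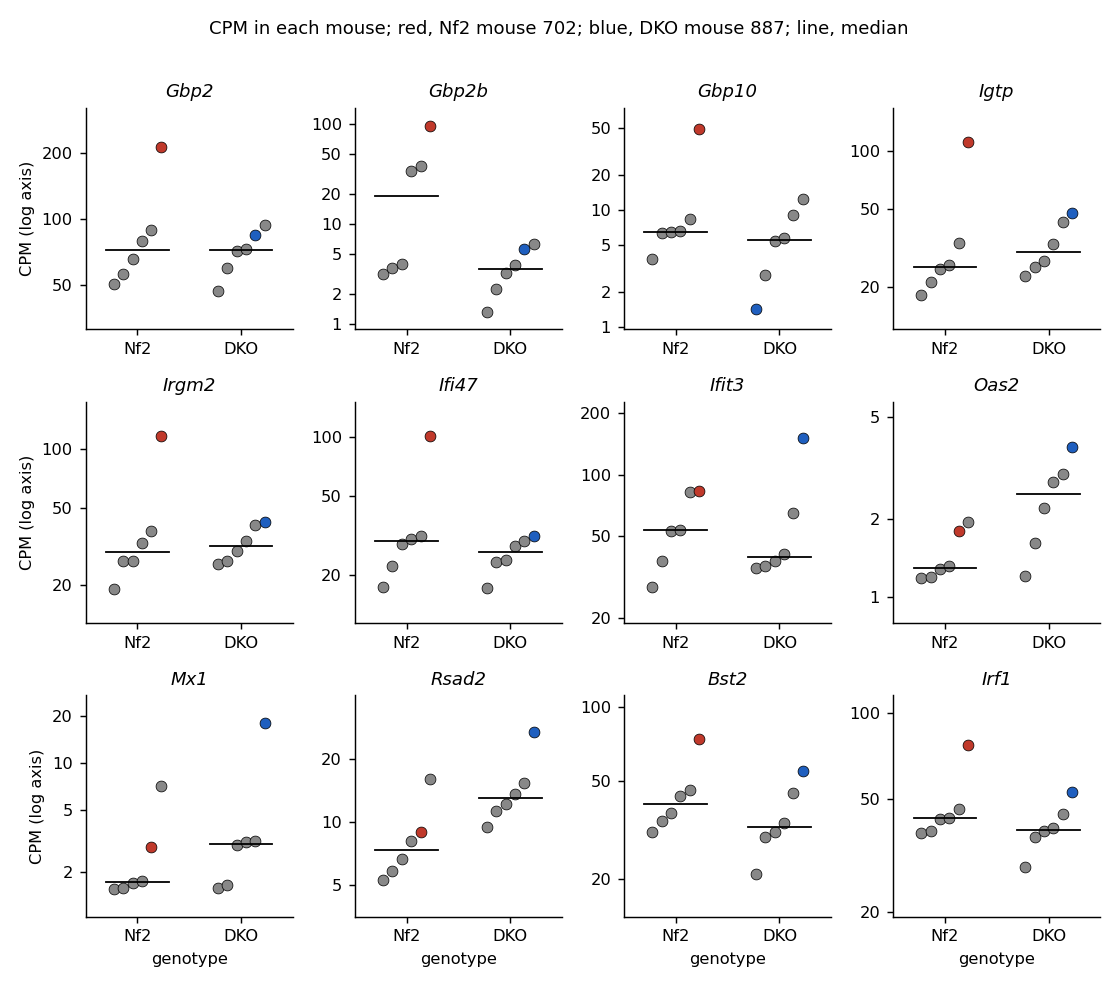
CPM on log axes of 12 members in each Nf2 and DKO mouse, with Nf2 mouse 702 in red, DKO mouse 887 in blue, the other mice in grey and a line at each genotype's median. Gbp2, Gbp10, Igtp, Irgm2 and Ifi47 have 1 high point, that of mouse 702, and Gbp2b has 3 high Nf2 mice, while Ifit3, Mx1 and Rsad2 are highest in mouse 887.

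IFIT proteins bind viral RNA and restrain its translation. Ifit2 was the steadiest of the 4, with 62.1, 73.4 and 83.2 CPM as the lowest, median and highest values in Nf2 mice and 58.9, 71.9 and 85.0 CPM in DKO mice. The genotypes overlapped nearly fully, and the log2 fold change was -0.039 ± 0.10 (SE, edgeR adjusted p = 0.896, 95% interval -0.26 to 0.18). Ifit3 varied more, from 28.2 over a median of 53.5 to 83.1 CPM in Nf2 mice and from 34.8 over 39.4 to 152 CPM in DKO mice. The DKO median was the lower one, and the highest value was that of mouse 887, followed by 83.1 CPM in mouse 702 and 82.4 in Nf2 mouse 884. Its log2 fold change of 0.10 ± 0.39 (adjusted p = 0.936) became -0.43 without mouse 887. Ifit1 and Ifit3b were also highest in mouse 887, at 65.1 and 42.1 CPM, and next in mouse 884, at 40.0 and 26.8 CPM. Ifit3 and Ifit3b are close copies that share 41.1% and 35.7% of their 75-base words, so part of their reads could be assigned to either.

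OAS proteins sense double-stranded RNA, and those that are active as enzymes activate RNase L. Oas2 had 1.18 CPM at the lowest, 1.30 at the median and 1.95 at the highest in Nf2 mice, and 1.20, 2.51 and 3.83 CPM in DKO mice. The 4 DKO mice 885, 886, 887 and 917 were above every Nf2 mouse, and the other 2 lay within the Nf2 range. The log2 fold change was 0.72 ± 0.27 (SE, 95% interval 0.15 to 1.30), with an edgeR unadjusted p of 0.0180 and an adjusted p of 0.215, and it stayed between 0.53 and 0.86 whichever mouse was left out. These levels rested on 30 to 81 reads per library. Oasl2 was the most abundant OAS gene, at 26.5, 35.4 and 54.3 CPM in Nf2 mice and 32.8, 36.2 and 54.5 CPM in DKO mice. Mice 702 and 887 were the highest of their genotypes and nearly equal, and the log2 fold change was -0.0087 ± 0.19 (adjusted p = 0.989).

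Oasl1, which restrains translation of Irf7, ranged from 0.937 over 1.34 to 2.36 CPM in Nf2 mice and from 1.26 over 1.60 to 4.16 CPM in DKO mice. The highest DKO value was mouse 887, the highest Nf2 value mouse 884, and the log2 fold change was 0.44 ± 0.33 (adjusted p = 0.585). Oas1a had 1.72, 2.24 and 3.04 CPM in Nf2 mice and 1.47, 2.29 and 2.66 CPM in DKO mice, with a log2 fold change of -0.14 ± 0.19 (adjusted p = 0.796). It shares 47.6% of its words with Oas1g. Oas3 stayed between 0.639 and 1.69 CPM in all mice and had a log2 fold change of 0.030 (adjusted p = 0.972).

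Mx proteins are dynamin-like GTPases that trap viral nucleocapsids. Mx1 had 1.56 CPM at the lowest, 1.73 at the median and 7.11 at the highest in Nf2 mice, and 1.58, 3.05 and 18.1 CPM in DKO mice. A single mouse stood out in each genotype, mouse 884 among the Nf2 mice (the next had 2.89 CPM) and mouse 887 among the DKO mice (the next had 3.18 CPM). The log2 fold change was 0.87 ± 0.63 (edgeR adjusted p = 0.569) with all mice and -0.17 without mouse 887. Mx2 repeated this at a higher level, with 3.75, 4.70 and 8.34 CPM in Nf2 mice and 4.34, 5.21 and 16.1 CPM in DKO mice. Its log2 fold change was 0.42 ± 0.33 (adjusted p = 0.619), and -0.054 without mouse 887. Mx2 is annotated as a polymorphic pseudogene, as is Gbp11 among the GBPs. Whether Mx1, Mx2 or Gbp11 makes a working protein in these mice was not tested.

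Among the antiviral effectors, Rsad2 (viperin, an enzyme that makes a chain-terminating nucleotide) had 5.28 CPM at the lowest, 7.35 at the median and 15.9 at the highest in Nf2 mice, and 9.42, 12.9 and 26.7 CPM in DKO mice. Nf2 mouse 884 was above 5 of the 6 DKO mice, and the other 5 Nf2 mice were below every DKO mouse. The log2 fold change was 0.79 ± 0.30 (SE, 95% interval 0.15 to 1.43), with an edgeR unadjusted p of 0.0194 and an adjusted p of 0.222, and it was 0.52 without mouse 887 and at most 1.07 when another mouse was left out. Exact two-sided permutation tests of log2(CPM + 4) gave p = 0.0303 for Rsad2 (difference 0.59) and p = 0.0411 for Oas2 (difference 0.23). Both are unadjusted and among 21 members tested in this way, which were picked partly for large fold changes in these same mice. These p-values are therefore no independent support for a genotype difference. Ifi44, a protein of unsettled antiviral function, had 2.62, 4.47 and 6.15 CPM in Nf2 mice and 1.71, 2.75 and 6.06 CPM in DKO mice. Apart from mouse 887 every DKO mouse was below the Nf2 median, and the log2 fold change was -0.53 ± 0.31 (adjusted p = 0.470), or -0.85 without mouse 887. Bst2 ranged from 31.0 over 40.2 to 74.3 CPM in Nf2 mice and from 20.9 over 32.3 to 54.8 CPM in DKO mice, with mice 702 and 887 the highest of their genotypes and a log2 fold change of -0.33 ± 0.25 (adjusted p = 0.587).

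Isg15, a ubiquitin-like protein attached to other proteins, and Usp18, the protease that removes it and dampens IFNAR signaling, were both highest in mouse 887. Isg15 had 26.3 CPM there against 5.61 to 12.8 CPM elsewhere, and Usp18 had 15.0 against 4.90 to 11.1 CPM. Rtp4, a chaperone-like protein that restrains flaviviruses, had 14.8 CPM in mouse 887, 14.5 in mouse 702 and 6.16 to 11.6 elsewhere. Their log2 fold changes were 0.30, 0.15 and -0.074, and none passed (adjusted p of 0.740, 0.851 and 0.926).

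None of the transcription factors passed. Irf1, the factor induced by interferon gamma, had 37.7, 42.6 and 77.1 CPM as the lowest, median and highest values in Nf2 mice and 28.7, 38.9 and 52.6 CPM in DKO mice. Mouse 702 was again the highest, the next Nf2 mouse had 46.0 CPM, and the log2 fold change was -0.27 ± 0.19 (SE, edgeR adjusted p = 0.549). Stat2, a subunit of the type I complex, had 58.1, 71.5 and 85.4 CPM in Nf2 mice and 63.2, 71.4 and 101 CPM in DKO mice, the last in mouse 887. The 2 medians differed by less than the spread among mice, and the log2 fold change was 0.054 ± 0.12 (adjusted p = 0.873, 95% interval -0.20 to 0.30). Irf9, the DNA-binding subunit of that complex, stayed between 25.3 and 44.6 CPM (log2 fold change -0.086, adjusted p = 0.788). Irf7, which amplifies type I interferon production, had 16.7 CPM in mouse 887 and 5.61 to 10.5 elsewhere (0.090, adjusted p = 0.912).

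The sexes were compared by label because each genotype held 3 mice labelled male and 3 labelled female. No fit was run with mouse 702 set to female. No member passed the test of male against female (0 of 39 against 3 of 18295 genes, 0.0164%), with 3 members, Gbp9, Gbp10 and Gbp11, at an unadjusted p under 0.05. That count was 2 without mouse 702. It rose to 14 without mouse 887, to 9 without mice 702 and 887 and to 7 with limma voom. The share of all genes at that unadjusted p was not computed for this test. For the interaction of genotype with sex, 0 of 39 members passed against 2 genes in all (0.0109%), and the smallest adjusted p of a member was 0.920. At an unadjusted p under 0.05 there were 19 members against 4.78% of all genes. This count fell to 9 without mouse 702, to 8 without mouse 887 and to 2 without both. It was 14, 7 and 13 without DKO mice 914, 915 and 917, and 9 and 11 without Nf2 mice 1048 and 1049. It rose to 25 and 20 without Nf2 mice 649 and 918, and to 21 and 24 without DKO mice 885 and 886. With limma voom it was 23, with DESeq2 22 and with no filter on low counts 29. The share of all genes at that unadjusted p was not computed for these alternative fits. Among mice labelled female, 4 of 39 fold changes were below 0 with a median of 0.50, and without mouse 887, 14 were below 0 with a median of 0.10. Among mice labelled male, 37 were below 0 with a median of -0.63, and without mouse 702, whose label its reads contradict, 28 were below 0 with a median of -0.27. The highest member values thus lay in a DKO mouse labelled female and in an Nf2 mouse labelled male.

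Of the rest of the pathway, from lists of its ligands, receptors, other IRF genes, sensors and targets, no gene passed the genotype comparison in either direction. The 8 listed interferon genes were at or near 0, with a summed level of 0 to 0.256 CPM, and none passed the filter. Ifng, which encodes interferon gamma, had 0 to 5 reads per library, the most in mouse 702, and Ifnb1, which encodes interferon beta, had 1 read in 1 library (Nf2 mouse 649). Of the 6 receptor chains, 5 had a fold change below 0 and 0 passed. Ifngr1 had 47.0 to 56.0 CPM in Nf2 mice and 40.3 to 48.3 CPM in DKO mice (log2 fold change -0.23, edgeR adjusted p = 0.102), and Ifnar2 had 35.0 to 50.4 and 25.8 to 38.2 CPM (-0.34, 0.147). The 8 other IRF genes and the 12 measured nucleic acid sensors and adaptors had 0 that passed, and Zbp1, a sensor of Z-form nucleic acid, had the largest change of them (-0.61, adjusted p = 0.422).

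Targets outside the 39 members were also highest in mouse 702. Of 30 other type I interferon-induced genes tested, 0 passed, 19 had a fold change below 0, and the median gene stood at 1.39 times the other mice in mouse 702 and at 1.16 times both in Nf2 mouse 884 and in mouse 887. Ifitm1, a membrane protein that blocks viral fusion, had the largest change, with 0.980 to 1.94 CPM in Nf2 mice and 1.23 to 5.45 CPM in DKO mice (log2 fold change 0.92, edgeR adjusted p = 0.154). Of 18 other interferon gamma-induced genes tested, 0 passed, 14 were below 0, and the median gene stood at 1.94 times in mouse 702 and 1.32 times in mouse 887. Of these, 3 were singled out after their values were seen. Cxcl9, a chemokine induced by interferon gamma, had 6.83 CPM in mouse 702 against 0.213 to 2.46 elsewhere, Nlrc5, an activator of MHC class I genes, had 34.2 against 8.36 to 27.4, and Cxcl10, induced by both interferon types, had 34.5 CPM in mouse 887 against 6.27 to 17.3 elsewhere. Serpina3g, a serine protease inhibitor, had the largest change of that list (log2 fold change 1.69, adjusted p = 0.0838). It followed neither library, with 25.1 to 26.5 CPM in DKO mice 885, 915 and 917 and 3.72 to 5.96 CPM in the other 9 mice.

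Markers of immune cells were set beside these genes, and whether they vary together was not tested. Of 12 macrophage and monocyte markers, 11 had a fold change below 0 and 1 passed, C1qb, a subunit of complement C1q (log2 fold change -0.71, edgeR adjusted p = 0.0138). Their summed level was 228 to 339 CPM in Nf2 mice and 195 to 251 CPM in DKO mice. Mouse 702 was the highest, ahead of Nf2 mouse 918 (326 CPM) and Nf2 mouse 649 (319 CPM), and mouse 887 had rank 10 of 12. The 12 T cell and NK cell markers summed to 4.36 to 10.3 CPM in Nf2 mice and 4.90 to 8.16 CPM in DKO mice, with 10.3 CPM in mouse 702, 10.2 CPM in Nf2 mouse 1049 and 5.58 CPM in mouse 887 (rank 10). The defining markers Gzmb and Ncr1 were at 0 in 1 and 3 libraries, and 0 of the 10 genes tested passed. Of 4 plasmacytoid dendritic cell markers, which mark a cell type that produces type I interferon, 1 of the 3 tested passed, Siglech (-0.96, adjusted p = 0.0472), with 9.28 to 13.2 CPM in Nf2 mice and 3.74 to 8.90 CPM in DKO mice. The other markers tested, Tcf4 and Pacsin1, had log2 fold changes of 0.054 (adjusted p = 0.860) and 0.13 (0.524). Ccr9 did not pass the filter on low counts. Whether the number of these cells changed cannot be told from Siglech alone. The 7 B cell and plasma cell markers had 0 that passed, 6 with a fold change above 0. Skeletal muscle markers were the lowest of all mice in mouse 702, at a sum of 10.5 CPM against 14.1 to 653 CPM, and stood at 48.9 CPM in mouse 887. The part of these cell types, and of the mitochondrial reads of mouse 887, in the member values was not tested.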

How the data were processed

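Dorsal root ganglion RNA was extracted with the Qiagen RNeasy Plus Mini Kit and DNase, and poly(A) libraries were made with NEBNext Ultra II. Per the labels and processing notes, reads were trimmed with Trimmomatic 0.36, aligned to GRCm38 with STAR 2.5.2b and counted with featureCounts in Subread 1.5.2. The annotation release, the strand setting and the treatment of reads with several matches were not given in the sources used here. The authors deposited raw counts, 1 whole number per gene and mouse, and each column was tied to a mouse by the mouse number in its name. Of 49315 genes, 174 had no symbol. Total counts per library ranged from 21129191 to 41250329, and no 2 of the 66 pairs of libraries agreed within sampling noise (chi-square of 10.6 to 89.8 for each degree of freedom).

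CPM was computed here as counts scaled to the library total. Genes kept by filterByExpr (18295) were tested in R 4.3.3 with edgeR 4.0.16, by the quasi-likelihood F test with TMM factors. All 12 mice entered this fit, which had no covariate. Adjusted p-values are Benjamini-Hochberg values over all genes tested (threshold 0.05). Models of labelled sex held genotype as a term or as an interaction. Mice of a genotype are separate animals. Exact permutation tests used all 924 splits of 6 against 6 mice on log2(CPM + 4) and were run only on the members described in detail. The edgeR, DESeq2 and limma fits were tested on simulated data with 200 changed genes. The alternatives were other scaling factors, other filters, DESeq2 1.42.0, limma voom 3.58.1, sex as a covariate, a pseudocount of 1, each sex alone and each mouse left out. Leaving out mice 702 and 887 together, and each sex without 1 of them, was added after the data had been seen.

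The 39 members, the role lists and the marker lists were chosen with earlier results of these data known. A list of other signaling genes is not reported here. Members described in detail were the 2 of each role list with the highest mean CPM and, in lists of 5 or more, the 2 with the largest absolute fold change. Positions, exon lengths and shared 75-base words came from GENCODE M21, and promoters from RefSeq. Motif matches were counted once per start on either strand. Python 3.11.15 was used for tables (pandas 2.3.3, numpy 2.4.6), and plots were drawn with matplotlib 3.10.9.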

Additional observations from a re-analysis of the deposited data

Results flagged for a closer look

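Within each genotype, the 6 values of every member on the log2(CPM + 4) scale were examined by Dixon's test, and a value was listed where its gap to the nearest mouse exceeded 0.625 of the range. Of 78 groups examined 20 gave such a value. The nominal rate of the test is about 1 in 20 groups, or 3.9, which treats the groups as independent. Mouse 702 gave 10 of the values and mouse 887 gave 7, so the groups were not independent. The share of all genes with such a value was not computed, and 3.9 is therefore no measured background.

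Nf2 mouse 702 was far above the other Nf2 mice in 10 members, all but Irf1 encoding GTPases of the GBP and IRG families. Among GBPs it had 76.6 CPM of Gbp4 (the nearest mouse had 13.9), 6.08 CPM of Gbp8 (1.01) and 49.8 CPM of Gbp10 (8.34). Among IRGs it had 110 CPM of Igtp (33.7), 84.1 CPM of Irgm1 (33.4), 117 CPM of Irgm2 (37.8), 94.7 CPM of Iigp1 (18.7), 101 CPM of Ifi47 (31.4) and 68.0 CPM of Tgtp2 (15.0). For Irf1 it had 77.1 CPM (46.0).

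DKO mouse 887 was far above the other DKO mice in 7 members. It had 42.2 CPM of Gbp5 (the nearest mouse had 26.5), 42.1 CPM of Ifit3b (19.2), 4.16 CPM of Oasl1 (2.04), 18.1 CPM of Mx1 (3.18), 16.1 CPM of Mx2 (5.73), 16.7 CPM of Irf7 (8.24) and 101 CPM of Stat2 (74.0).

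Nf2 mouse 884 stood above the other Nf2 mice in both Mx genes, with 7.11 CPM of Mx1 (2.89) and 8.34 CPM of Mx2 (5.10). DKO mouse 886 was low in Irf9, with 25.3 CPM against 33.0 CPM in the nearest mouse.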

How the results depend on the processing

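Of the 39 members, 0 passed the edgeR test in the fit to all mice, under every other scaling factor, filter and subset of mice tried and in limma voom, whereas DESeq2 called 1, Gbp2b. The fit says little about small changes, because standard errors of the members ranged from 0.10 (Ifit2) to 0.83 (Gbp2b) on the log2 scale. Members such as Oas3 and Gbp8 rested on as few as 15 and 8 reads in a library. Over all genes tested, the biological coefficient of variation was 19.8%. The number of all genes called moved from 172 to 831 with DESeq2, 521 with limma voom, 57 in females alone, 50 without mouse 887 there, 2 in males alone, 9 without mouse 702 there, 116 without mice 702 and 887, and 81 to 217 when 1 mouse was left out. The count of members below 0 moved from 24 to 4 in females, 14 without mouse 887 there, 37 in males, and 12 to 34 when 1 mouse was left out, and the member median moved from -0.11 to 0.50 in females and -0.63 in males. The calls of 0 members for sex and for its interaction with genotype held under all alternatives run. Under alternatives other than leaving out 1 mouse, 416 fold changes of single members kept their direction and call, 90 turned and 1 (Gbp2b with DESeq2) became a call, and no direction or call of the permutation tests changed with a pseudocount of 1. No paired analysis was possible because the mouse numbers are not shared between genotypes.

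Directions of single members that turned, given as log2 fold changes, were as follows, and the cause was not tested. In females alone they were Gbp2 0.065, Gbp3 0.13, Gbp4 1.39, Gbp5 0.50, Gbp6 0.77, Gbp7 0.26, Igtp 0.71, Irgm1 0.49, Irgm2 0.36, Iigp1 1.28, Ifi47 0.11, Tgtp2 0.77, Ifit2 0.10, Oas1a 0.37, Oasl2 0.46, Ifi44 0.047, Bst2 0.10, Rtp4 0.50, Irf1 0.082 and Irf9 0.043. Without mouse 887 among the females they were Gbp4 1.57, Gbp5 0.20, Gbp6 0.058, Gbp9 0.077, Igtp 0.42, Irgm1 0.17, Irgm2 0.16, Iigp1 0.92, Tgtp2 0.56, Ifit3 -0.13, Ifit3b -0.17, Oas1a 0.40, Oasl2 0.21 and Rtp4 0.10. In males alone they were Gbp8 -0.63, Tgtp1 -0.58, Ifit1 -0.38, Ifit3 -0.67, Ifit3b -0.49, Oas3 -0.15, Oasl1 -0.074, Mx1 -0.60, Mx2 -0.43, Isg15 -0.35, Usp18 -0.41, Irf7 -0.44 and Stat2 -0.15. Without mouse 702 among the males they were Gbp2 0.0029, Gbp4 0.31, Gbp10 0.40, Igtp 0.030, Iigp1 0.11, Tgtp2 0.17, Ifit1 -0.44, Ifit3 -0.57, Ifit3b -0.41, Oasl1 -0.29, Mx1 -0.77, Mx2 -0.55, Isg15 -0.42, Usp18 -0.37, Irf7 -0.38 and Stat2 -0.068. Without mice 702 and 887, they were Gbp4 0.95, Gbp10 0.14, Igtp 0.26, Irgm1 0.031, Irgm2 0.10, Iigp1 0.53, Tgtp2 0.41, Ifit1 -0.044, Ifit3 -0.28, Ifit3b -0.24, Oasl1 -0.011, Mx1 -0.15, Mx2 -0.045, Isg15 -0.12, Irf7 -0.13 and Stat2 -0.00044. With limma voom they were Tgtp1 -0.18, Ifit3 -0.23, Ifit3b -0.25, Oas3 -0.12, Irf7 -0.17 and Stat2 -0.0029, with sex as a covariate Gbp4 0.048, Iigp1 0.0098 and Oasl2 0.022, and Oasl2 turned to 0.0035 with upper-quartile factors and to 0.010 with library totals alone. When 1 mouse was left out, the members whose direction turned at least once ranged over Gbp2 -0.52 to 0.055, Gbp4 -0.51 to 0.94, Gbp5 -0.47 to 0.10, Gbp6 -0.64 to 0.16, Gbp8 -0.091 to 1.37, Igtp -0.41 to 0.41, Irgm1 -0.45 to 0.20, Irgm2 -0.57 to 0.19, Iigp1 -0.45 to 0.77, Tgtp2 -0.58 to 0.51, Ifit1 -0.11 to 0.59, Ifit2 -0.10 to 0.016, Ifit3 -0.43 to 0.25, Ifit3b -0.33 to 0.14, Oas3 -0.10 to 0.14, Oasl2 -0.14 to 0.11, Mx1 -0.17 to 1.41, Mx2 -0.054 to 0.61, Isg15 -0.15 to 0.44, Usp18 -0.11 to 0.30, Rtp4 -0.29 to 0.10, Irf7 -0.23 to 0.19, Irf9 -0.14 to 0.0019 and Stat2 -0.065 to 0.11. Of the 48 such turns, 12 came without mouse 702 and 10 without mouse 887.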

Other observations

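DKO mouse 886 combined opposite extremes within the GTPase families. It was the lowest of the 12 mice in 9 members, with 46.9 CPM of Gbp2 and 34.4 CPM of Gbp3, and it was high in Gbp4 (45.1 CPM, 4.00 times the other mice), Gbp8 (2.81 CPM, 3.32 times) and Tgtp1 (8.26 CPM, 6.80 times). All 3 high genes overlap another gene model or share transcript words with a near copy, and they rest on 1 library.

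In DKO mouse 887 the paired genes Gbp6 and Gbp10, which share most of their transcript words with the gene model Gm43302, moved apart. Gbp6 stood at 3.35 times the other mice there and Gbp10 at 0.22 times, whereas in Nf2 mouse 702 they stood at 2.99 and 7.88 times. Nf2 mouse 1048 was the lowest of the 12 in 11 members, 6 of them IRGs. The share of all genes in which mouse 1048 or mouse 886 was the lowest was not computed.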
